A study of Mus musculus with 5 samples.

Results

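The genes described here encode subunits of chromatin-remodelling, deacetylase, Polycomb and loop-forming complexes, together with proteins known to bind SATB1, in mouse embryonic stem (ES) cells. They were selected by name from a list of 46 genes, and 45 of them had a probe set that the array's annotation assigns to 1 gene symbol, out of 19938 genes named in that way. Expression of Ncor1 was not analysed here. Where a gene had several probe sets, the brightest on average over the arrays was used. RNA was profiled on 5 arrays of ES cells with a tetO-Satb1 transgene, which doxycycline switches on. The uninduced group (2 arrays) had the transgene without doxycycline (DOX), and the induced group (3 arrays) received DOX for 24 h, with RNA taken 48 h after passaging in both. The labels do not name the parental line, say whether the line is 1 clone, or tell whether the arrays of 1 group were separate cultures, so the spread between arrays may be technical. There were no DOX-treated cells without the transgene. An effect of DOX itself and one of SATB1 cannot be told apart, nor can fewer cells of a type and less RNA per cell in these bulk samples.

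SATB1 attaches to AT-rich stretches of DNA and is best studied in T lymphocytes, where it tethers chromatin loops and recruits enzymes that remodel or deacetylate nucleosomes. NuRD joins an ATP-driven remodeller to histone deacetylases, BAF and ISWI complexes slide or eject nucleosomes, Polycomb complexes keep developmental genes silent through marks on histones H3 and H2A, and CTCF with cohesin forms loops. ES cells depend on several of these complexes to keep lineage genes off and still inducible. The comparison asks whether transcripts of these partners and complexes differ when Satb1 is induced.

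Satb1 RNA was higher in the induced group, and transgene and endogenous transcripts were not told apart. Satb1 had log2 values of 4.95 and 5.34 without DOX and of 8.61, 8.79 and 8.68 with it, an 11.7-fold difference (log2 change 3.55, 95% interval 3.23 to 3.86, limma adjusted p = 0.0038). It did not pass without uninduced array 1 (limma adjusted p = 0.0534), induced array 1 (0.0636) or induced array 3 (0.111), nor with limma's default variance prior (0.229), with a log2 change of 3.35 to 3.75 over all arrays left out in turn. ES cell markers such as Pou5f1, Sox2 and Dppa5a were present, and the mean of 12 such markers was between 8.90 and 8.95 on all arrays. Of the 12, 7 had a lower, 4 a higher and 1 an equal mean with DOX. Tdgf1 among them was at 11.23 and 11.29 uninduced and at 11.07, 11.09 and 11.01 induced. Its log2 change of -0.21 did not pass the test. Feeders are named in the protocols but not in the design text, and 25 fibroblast markers had a mean of 5.37 on both arrays without DOX and of 5.37, 5.39 and 5.40 with it. Of the 25, 14 had a higher, 8 a lower and 3 an equal mean with DOX. Their changes ran from -0.20 for Lox, which lay lower on every induced array, to 0.19 for Tagln, and none passed the test. Pearson's r between arrays, across genes, was 0.9972 to 0.9979, and genes are not independent replicates.

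Transcripts of the chromatin genes stayed close to their uninduced levels. The changes of the 45 genes ran from -0.12 for Hdac2 to 0.16 for Mta1 on the log2 scale. None passed the test (limma with Benjamini-Hochberg adjustment over all genes, adjusted p = 1 for each), against 0.00502% of all genes, which was Satb1 alone. None had an unadjusted p under 0.05, against 1.07% of all genes (0.301% higher and 0.772% lower). With limma's default variance prior 0 passed after adjustment, against 3 of all genes, and 1, Hdac2, had an unadjusted p under 0.05, against 309 of all genes. Mean levels were lower in 26 genes, higher in 17 and the same in 2. The median change was -0.0050, beside 0 for all genes and -0.0038 for the 9969 genes above the median level, the class that holds 44 of the 45.

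**Figure D1:**
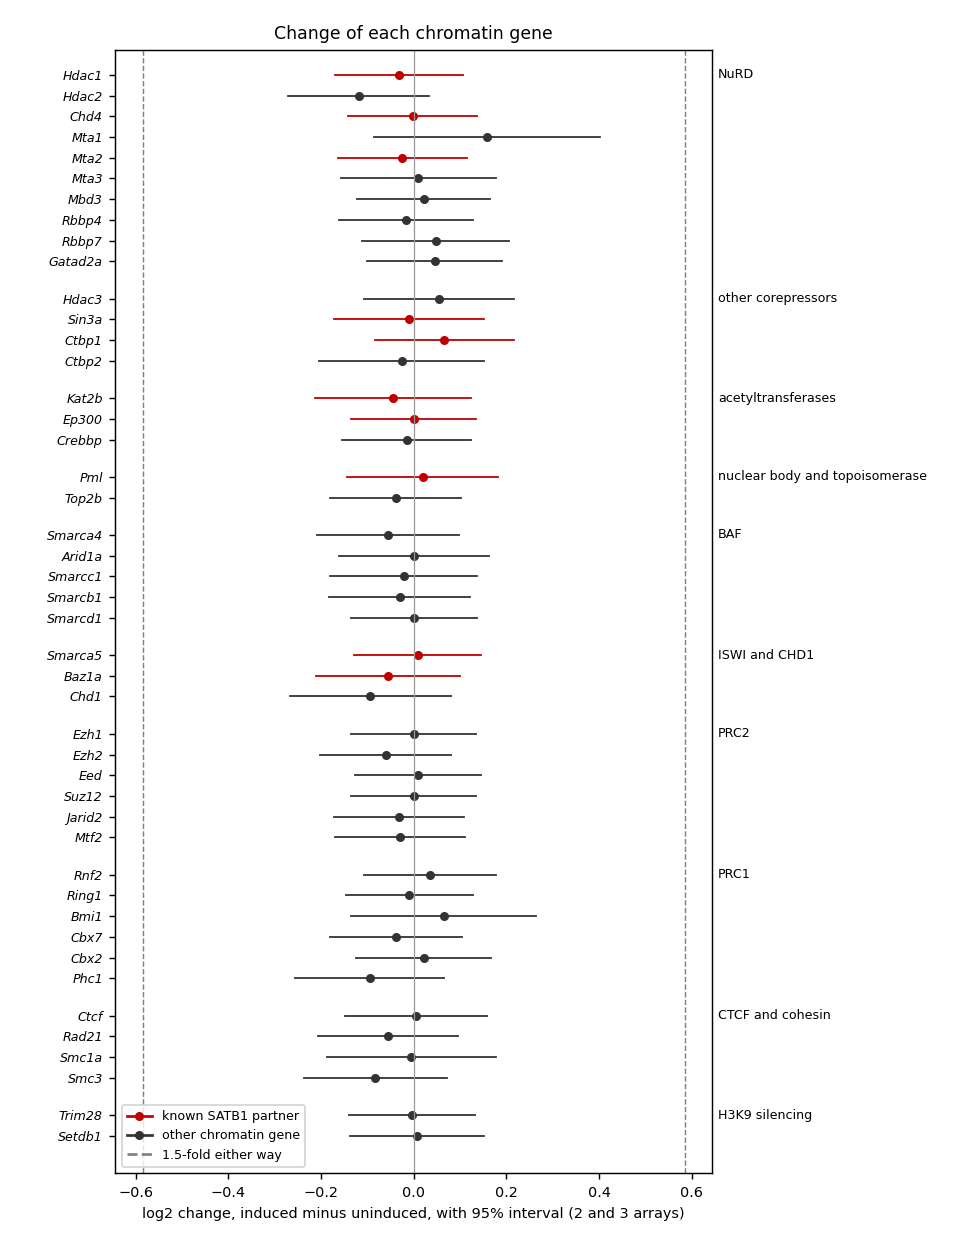
Log2 change (induced minus uninduced) of each of the 45 chromatin genes, with its 95% interval from limma over 2 uninduced and 3 induced arrays, grouped by complex. Known SATB1 partners are in red, dashed lines mark 1.5-fold either way, and every interval lies between -0.27 and 0.40.

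The fit set a bound on the changes between these arrays, whose spread may be technical only. For Ep300 and Ezh1, with 1 value on all arrays, the interval of -0.13 to 0.13 came from the variance prior alone. The 95% interval of the change lay within 1.5-fold either way in all 45 genes, against 98.5% of all genes and 99.5% of those above the median level, so that a change of 1.5-fold or more lay outside the interval of every one of them. The lowest bound was -0.27 (Hdac2) and the highest was 0.40 (Mta1). These intervals hold gene by gene, and a p that misses the threshold does not show that levels were the same. The absolute log2 change was under 0.1 in 43 of the 45 genes (95.6%), against 85.8% of all genes and 89.3% of those above the median level.

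**Figure D2:**
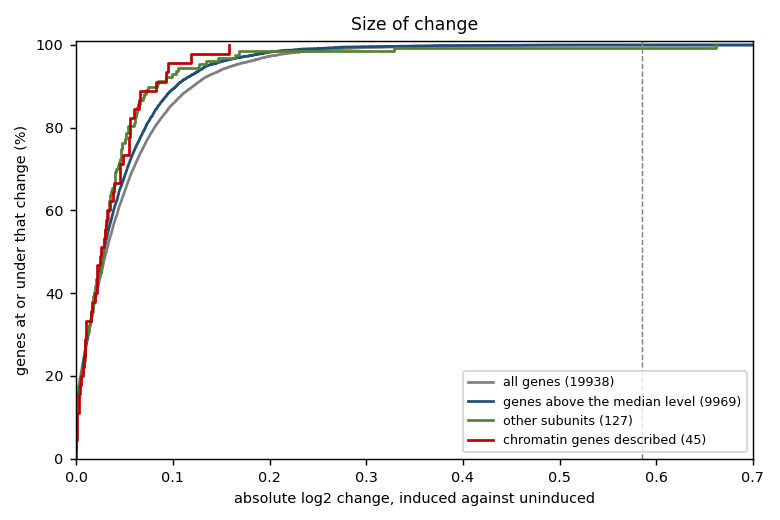
Percent of genes (vertical axis) at or under a given absolute log2 change (horizontal axis). Curves are for the chromatin genes described, other subunits with related chromatin factors, genes above the median level and all genes. The axis ends at 0.7, which leaves out Satb1 and a few others, and the curve of the 45 chromatin genes reaches 100% at 0.16.

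In 3 genes all induced arrays lay below both uninduced arrays, and in 0 genes all lay above. That is 6.67% of the 45, against 3.08% of all genes and 4.98% of genes above the median level for lower, and 1.65% and 1.57% for higher. These genes were Hdac2, Ezh2 and Smc3. Hdac2, a class I histone deacetylase of NuRD, SIN3 and CoREST complexes, was at 8.89 and 8.93 on the uninduced and at 8.83, 8.74 and 8.80 on the induced arrays. Its group means were 8.91 ± 0.03 (SD, n = 2) and 8.79 ± 0.05 (SD, n = 3), and the change was -0.12 with a standard error of 0.06. Ezh2, the H3K27 methyltransferase of Polycomb repressive complex 2, was at 8.92 and 8.88 without DOX and at 8.86, 8.82 and 8.84 with it. The groups did not overlap, and the gap between the lowest uninduced and the highest induced array was smaller than the gap between both uninduced arrays. Smc3, an ATPase of the cohesin ring, was at 8.73 and 8.81 uninduced and at 8.73, 8.69 and 8.64 induced, where the first induced array all but met the lower uninduced one. The changes of Ezh2 and Smc3 were -0.06 ± 0.06 and -0.08 ± 0.06 (change ± standard error), and none of the 3 passed the test. Without uninduced array 1 the change of Ezh2 was -0.04, and without uninduced array 2 that of Smc3 was -0.04.

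**Figure D3:**
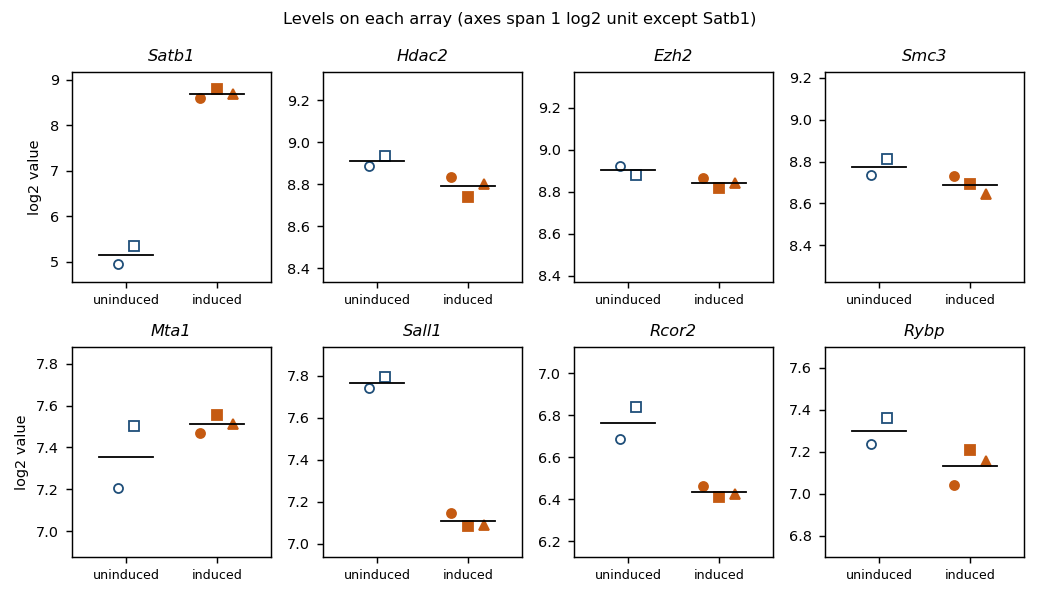
Log2 value on each array (points) and group mean (line) for Satb1, for Hdac2, Ezh2 and Smc3, for Mta1, and for Sall1, Rcor2 and Rybp. Vertical axes span 1 log2 unit except for Satb1, and the induced points of Mta1 surround the higher uninduced point.

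Promoters of these genes were read from RefSeq (GRCm38.p6), to show how much AT-rich DNA, which SATB1 is known to prefer, lies just upstream. No binding was measured here. Of the 46 genes 39 had an entry, with 48 promoters, and 250 bases before the start were used. A and T made up a median of 36.2% of these bases, against 43.2% for 19177 promoters of genes named on the array. A run of 6 or more A or T letters in any order was in 26 of the 48 (54.2%), against 60.1%, and the word TAATA, on either strand, in 7 (14.6%), against 17.0%. The median number of CG pairs was 21, against 11. Of the 45 measured genes 44 were above the median level, and promoters of that class were not compared separately. These differences may thus not be particular to the genes described. Among the SATB1 partners with an entry, which Hdac1 and Baz1a lacked, Kat2b had the longest A or T run, at 22 letters against 21 for Sin3a. Sequences are given for the genes whose groups did not overlap and for Kat2b, with runs of 6 or more A or T in capitals:
Hdac2 (chr10:36974294-36974543, + strand): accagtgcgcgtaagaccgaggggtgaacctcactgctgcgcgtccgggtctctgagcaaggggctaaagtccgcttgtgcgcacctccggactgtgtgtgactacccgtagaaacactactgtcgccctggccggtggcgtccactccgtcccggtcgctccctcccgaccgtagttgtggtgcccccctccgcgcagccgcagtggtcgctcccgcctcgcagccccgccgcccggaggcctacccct
Ezh2 (chr6:47595031-47595280, - strand): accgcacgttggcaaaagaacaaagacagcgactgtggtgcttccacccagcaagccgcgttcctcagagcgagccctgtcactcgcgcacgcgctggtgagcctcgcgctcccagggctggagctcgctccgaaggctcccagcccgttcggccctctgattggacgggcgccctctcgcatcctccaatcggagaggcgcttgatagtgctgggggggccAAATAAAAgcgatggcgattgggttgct
Smc3 (chr19:53600146-53600395, + strand): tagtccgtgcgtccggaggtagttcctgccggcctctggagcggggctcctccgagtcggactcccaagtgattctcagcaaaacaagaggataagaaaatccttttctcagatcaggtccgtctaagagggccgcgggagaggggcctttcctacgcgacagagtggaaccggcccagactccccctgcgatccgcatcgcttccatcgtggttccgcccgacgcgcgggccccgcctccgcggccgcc
Kat2b (chr17:53566721-53566970, + strand): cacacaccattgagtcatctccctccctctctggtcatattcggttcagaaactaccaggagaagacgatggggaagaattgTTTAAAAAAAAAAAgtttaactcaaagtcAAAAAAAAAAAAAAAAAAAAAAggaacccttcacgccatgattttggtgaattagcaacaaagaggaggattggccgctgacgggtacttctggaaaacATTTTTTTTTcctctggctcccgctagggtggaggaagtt
The windows of Hdac2 and Smc3 held 0 such runs and that of Ezh2 held 1, of 8 letters. They held 27, 26 and 23 CG pairs. The printed window of Kat2b had 59.2% A and T, 6 CG pairs and a run of 22 letters, and its second promoter, not printed, had 51.6%, 5 pairs and a longest run of 6.

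NuRD, some of whose subunits are known to bind SATB1, had 10 measured genes, of which 5 had a lower and 5 a higher mean. Mta1, a scaffold subunit that binds the deacetylases, had the largest increase in the list, at 7.20 and 7.50 uninduced and 7.47, 7.55 and 7.51 induced. The groups overlapped, since uninduced array 2 lay among the induced values and only uninduced array 1 was low. Its change was 0.16 ± 0.10 (standard error). Without uninduced array 1 it was 0.0090, and without uninduced array 2 it was 0.31. Hdac1, the partner enzyme of Hdac2, was at 9.95 and 9.97 uninduced and 9.95, 9.92 and 9.92 induced, and a second probe set had a change of -0.01. Chd4, the NuRD remodelling ATPase, was at 8.92 and 8.98 uninduced and had 8.95 on each induced array, between the uninduced values. Mta2 was at 7.66 and 7.68 uninduced and at 7.66, 7.66 and 7.62 induced. All 3 are SATB1 partners; Chd4 overlapped between groups, and Hdac1 and Mta2 touched at a shared value. The histone-binding proteins Rbbp4 and Rbbp7 had log2 changes of -0.02 and 0.05, the methyl-CpG-binding family member Mbd3 had 0.02, Mta3 had 0.01 and Gatad2a had 0.05. The 10 genes averaged 8.49 and 8.54 without DOX and 8.53, 8.53 and 8.51 with it, which lay between.

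Of the other corepressor genes, 2 had a lower and 2 a higher mean. Sin3a, the scaffold of another deacetylase complex and a SATB1 partner, was at 8.13 on both uninduced arrays and at 8.14, 8.17 and 8.04 after DOX, on either side of it. Ctbp1, a corepressor reported to bind SATB1, was at 7.12 and 7.21 uninduced and 7.21, 7.25 and 7.23 induced, a change of 0.07 ± 0.06 (standard error), which was 0.02 without uninduced array 1 and 0.11 without uninduced array 2. Induced array 1 had the same value as uninduced array 2, so the groups touched. Its relative Ctbp2 had a change of -0.03, and Hdac3, the deacetylase of NCoR complexes, had 0.05.

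The acetyltransferases, which counter these enzymes, were tied on most arrays. Ep300 had 7.19 on all 5 arrays. Kat2b, also called PCAF, which acetylates SATB1 itself, had 4.78 on 4 arrays and 4.64 on induced array 3, so that its change of -0.04 came from 1 array. Crebbp had 7.64 on 4 arrays and 7.59 on induced array 1. Pml, the organiser of nuclear bodies that contact SATB1, was at 7.89 and 8.03 uninduced and at 7.98 on each induced array, inside the uninduced range. Top2b, a topoisomerase that cuts and rejoins DNA, had a change of -0.04.

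The 5 BAF genes encode the ATPase Smarca4 (BRG1), the large subunit Arid1a and the core subunits Smarcc1, Smarcb1 and Smarcd1. In each of the 5 the gap between both uninduced arrays was larger than the change, which ran from -0.06 in Smarca4 to 0.00044 in Arid1a. That gap was the larger in 8138 of all 19938 genes. Smarca4 had 7.72 on all arrays except uninduced array 2, at 7.83. The ISWI ATPase Smarca5 and its partner Baz1a (ACF1) are known partners of SATB1 in T cells. Smarca5 was at 8.71 on both uninduced arrays and at 8.74, 8.71 and 8.71 after induction, so the groups overlapped. Baz1a was at 6.11 and 6.06 uninduced and at 6.06, 5.97 and 6.06 induced, so the groups touched at 6.06. Chd1, a remodeller tied to the open chromatin of ES cells, was at 7.71 and 7.87 uninduced and at 7.67, 7.71 and 7.71 induced, a change of -0.09 ± 0.07 (standard error). Uninduced array 2 stood alone there, and without it the change was -0.01, while without uninduced array 1 it was -0.17. The 3 ISWI and CHD1 genes averaged 7.51 and 7.54 uninduced and 7.49, 7.46 and 7.49 induced, so every induced mean was the lower. The mean over all genes had the same order, at 5.241 and 5.242 uninduced and 5.236, 5.239 and 5.236 induced. Genes above the median level did not, with means of 6.562 and 6.580 uninduced and 6.563, 6.560 and 6.553 induced.

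The 10 SATB1 partners as a class (Hdac1, Chd4, Mta2, Sin3a, Ctbp1, Kat2b, Ep300, Pml, Smarca5 and Baz1a) had 6 lower, 3 higher and 1 equal mean. Their changes ran from -0.05 to 0.07 with a median of -0.0063, every interval lay between -0.21 and 0.22, and the groups overlapped or touched in all 10, against 18994 of all 19938 genes. Satb1 RNA rose 11.7-fold. Each partner had an interval within 1.5-fold, as had 98.5% of all genes and 99.5% of those above the median level.

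Of the 6 genes of Polycomb repressive complex 2, which methylates histone H3, 4 had a lower, 1 a higher and 1 an equal mean. Ezh2 is described above. Its homologue Ezh1 had 6.68 on all 5 arrays, and the core subunits Suz12 and Eed had changes of -0.00032 and 0.0092. Jarid2 and Mtf2, accessory proteins that guide the complex to CpG islands, had -0.03 each. The complex averaged 8.65 and 8.64 uninduced and 8.64, 8.62 and 8.63 induced. Here too every induced mean lay below both uninduced means, the nearest pair being 8.639 and 8.642. The mean over all genes, given above, had the same order.

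Polycomb repressive complex 1, which ubiquitinates H2A, had 3 lower and 3 higher means among 6 genes. Phc1, a polyhomeotic subunit, was at 8.53 and 8.64 uninduced and at 8.47, 8.53 and 8.46 induced, a change of -0.10 ± 0.07 (standard error). Induced array 2 and uninduced array 1 had the same value, and the change was -0.15 without uninduced array 1 and -0.04 without uninduced array 2. Bmi1 had 5.52 on 4 arrays and 5.71 on induced array 3, so that its change of 0.06 came from that array. The catalytic subunits Rnf2 and Ring1 had changes of 0.04 and -0.0091, and the chromodomain subunits Cbx7 and Cbx2 had -0.04 and 0.02.

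Of the 4 loop genes, 3 had a lower mean. Ctcf, the zinc finger protein at loop anchors, was at 8.24 and 8.35 uninduced and 8.31, 8.30 and 8.30 induced, between the uninduced values. The cohesin subunits Rad21 and Smc1a had changes of -0.06 and -0.0050, and Smc3 is described above. Trim28 (KAP1) and Setdb1, which silence retroviral elements through methylation of histone H3, had changes of -0.0032 and 0.0070.

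The spread between the uninduced arrays was as large as most of these changes. In 25 of the 45 genes both uninduced arrays differed by more than the change. The same held for 8138 of all 19938 genes and for 4366 of the 9969 above the median level. Of the 45, 27 were higher on uninduced array 2 than on array 1, with 7 lower and 11 equal. Among all genes 30.6% were higher on array 2, and among those above the median level 40.4%. Averaged over the 45 genes, the uninduced arrays were at 7.945 and 7.988 and the induced arrays at 7.962, 7.958 and 7.951, all between them. The count of genes with all induced arrays below was 22 without uninduced array 1 and 6 without uninduced array 2, and the count above was 1 and 12. Fewer arrays separate more easily in any gene. Matching counts over all genes are not given here, so these counts show nothing particular to the 45 genes. Exact ties also limit what can be seen, since 2 of the 45 genes had 1 value on all arrays and 8 had 5 distinct values. Among all 19938 genes these numbers were 3011 and 1800.

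**Figure D4:**
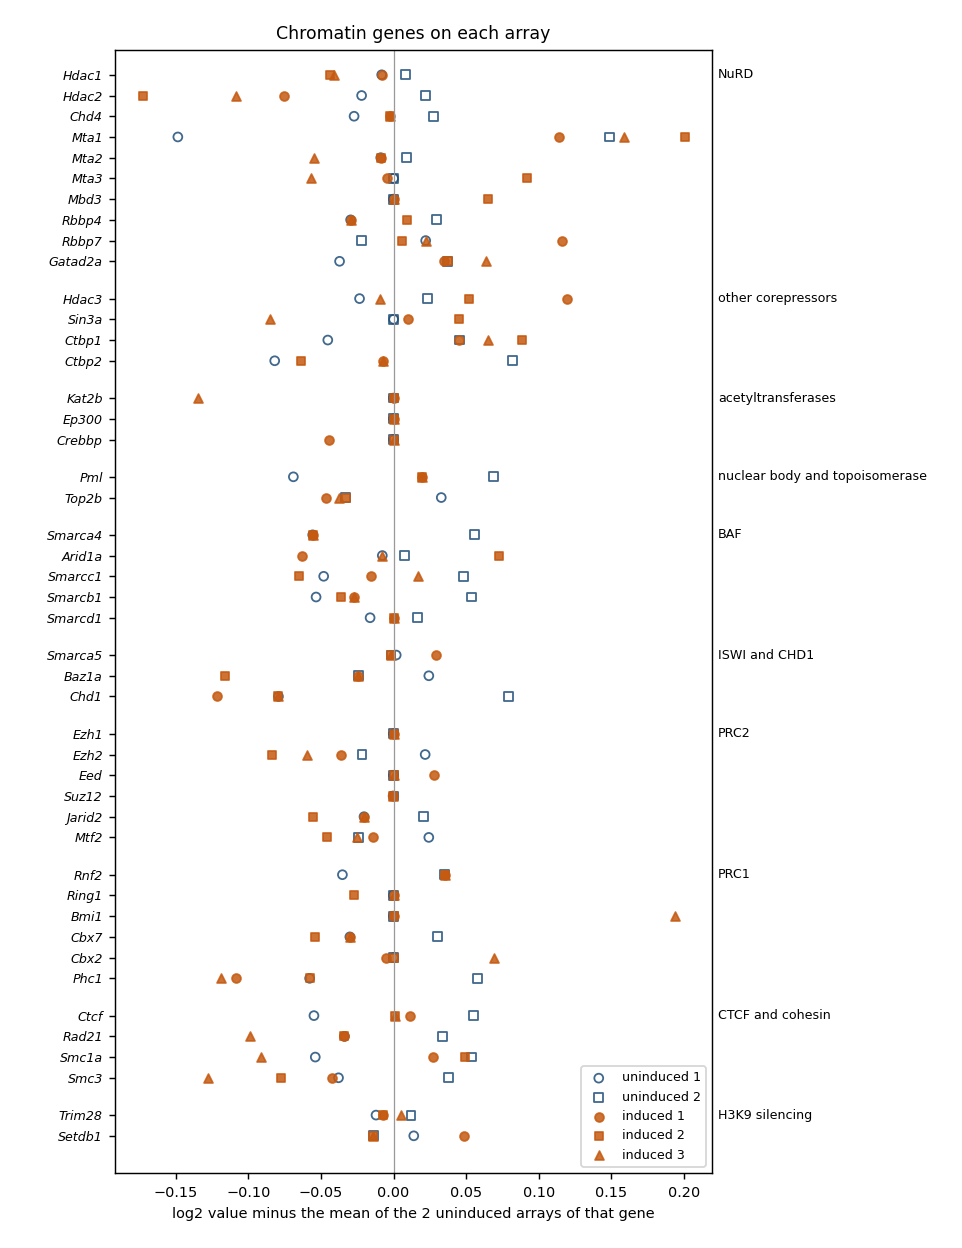
Log2 value of each chromatin gene on each array minus the mean of both uninduced arrays of that gene. Open blue symbols are uninduced and filled orange symbols induced arrays, symbols that coincide are exact ties, and in 42 of the 45 genes the groups overlap or touch.

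Other subunits of these complexes and related chromatin factors, 127 measured of 131 listed, had 70 lower, 42 higher and 15 equal means. Their median change was -0.0052. None passed over all genes in limma, and 2 had an unadjusted p under 0.05, against 1.07% of all genes. All induced arrays lay below in 6 of the 127 (4.72%) and above in 1 (0.787%), against 3.08% and 1.65% of all genes and 4.98% and 1.57% of those above the median level. Sall1, a zinc finger protein that recruits NuRD, was at 7.74 and 7.79 uninduced and at 7.15, 7.08 and 7.09 induced, a change of -0.66 ± 0.06 (standard error, limma adjusted p = 0.371). It passed where only the 9969 genes above the median level were fitted (limma adjusted p = 0.015). That fit changed both the number of genes tested and the variance prior, which was taken from those of them with 5 distinct values. Rcor2, a CoREST scaffold linking the demethylase Kdm1a to Hdac1 and Hdac2, was at 6.68 and 6.84 uninduced and at 6.47, 6.41 and 6.42 induced, a change of -0.33 ± 0.07 (limma adjusted p = 1). Rybp, a subunit of variant Polycomb repressive complex 1, was at 7.24 and 7.36 uninduced and at 7.04, 7.21 and 7.15 induced, a change of -0.16 ± 0.08. In these 3 genes the groups did not overlap. The BAF subunit Brd7 and the remodellers Chd6 and Chd9 were also separated, with changes of -0.05, -0.05 and -0.01, and Chd3 was separated upward with 0.03. Kdm1a itself had a change of 0.03, and Sall4, the ES cell relative of Sall1, had -0.0021.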

How the data were processed

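RNA of 5 samples was measured on arrays. The authors deposited log2 values for 35557 probe sets, made with RMA per the submitters' processing notes, which corrects background, normalizes the arrays and summarises the probes. Its version, the software and the genome build are not stated there. RMA forces the arrays onto 1 distribution, so a shift of all transcripts would not be seen. A single gene symbol was given for 21789 probe sets by the array's annotation, which left 19938 genes. No filter on low values was used.

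Groups came from the titles. Genes were tested with limma 3.58.1 in R 4.3.3, adjusted over the 19938 genes, at a threshold of 0.05. Exact ties between arrays push limma's default variance prior toward 0 (SD 0.0050), so the prior (SD 0.086, 2.87 degrees of freedom) was taken from the 1800 genes with 5 distinct values and applied to every gene. Exact permutation over 10 splits cannot reach a p under 0.1, so none was run. The number of arrays limits precision.

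The genes, lists, tests and the prior were chosen with earlier results of these data known. Values on every array are given for genes whose groups do not overlap, for the 10 SATB1 partners, and for the 3 largest changes in each direction. Up to 5 other subunits per direction were to be named, those with the largest changes among the separated ones; Chd9, Kdm1a and Sall4 were added after their values were seen. The count of intervals within 1.5-fold and the promoter comparison were added after seeing the data. Expression of listed genes with no matched probe set was not analysed here; the promoters of Ncor1 are counted among the promoters.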

Additional observations from a re-analysis of the deposited data

How the results depend on the processing

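In 13 alternatives, 0 of 554 values of the chromatin genes passed the test, 39 had the other sign, and the largest absolute change was 0.31 (Mta1 without uninduced array 2). The default prior and the fits on genes with no tie or above the median level kept the main changes, so no sign could turn there. The title number as a replicate block gave the same changes as leaving out induced array 3, and both are counted. The interval stayed within 1.5-fold for every gene tested, including the 15 with no tie within either group. With each array left out in turn the median was -0.015 to 0.0067. Against 3 genes with all induced arrays below and 0 above, centring arrays on their medians gave 5 below and quantile normalization applied again gave 8 above; both break exact ties. With single arrays left out, 3 to 22 lay below and 0 to 12 above, where fewer arrays separate more easily. Matching counts over all genes under these alternatives are not given here. Among all genes, against 1 higher and 0 lower, the default variance prior gave 2 higher and 1 lower. Genes above the median level, with the variance prior re-estimated on them, gave 1 lower, Sall1 (limma adjusted p = 0.015). The higher count was 0 with the title number as a replicate block and with the feeder mean as a covariate, and 0 to 1 without 1 array; the lower count was 0 there. Satb1 kept its direction and lost its call at 3.55 with the default prior (limma adjusted p = 0.229), 3.56 with the block (0.0823) and 3.47 with the feeder covariate (0.226), and lay between 3.35 and 3.75 with single arrays left out, losing the call without uninduced array 1 (0.0534) or induced array 1 (0.0636) or 3 (0.111). The cause of these losses was not tested. Arrays of 1 number were not shown to be paired (correlations of their deviations -0.0063 and 0.0063). The block gave the chromatin genes a median of -0.0024.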
